A study of Rattus norvegicus with 6 samples.

Results

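Eng, Nt5e, Thy1, Cd44, Anpep, Vcam1, Cd200 and Lepr encode the cell surface proteins most often used to recognise mesenchymal stromal cells, spindle-shaped cells that attach to plastic when mononuclear cells of marrow or blood are cultured. They were followed in stromal cultures from 3 rats carrying a GFP transgene, named S4, S5 and S6. Each rat gave 1 culture from peripheral blood and 1 from bone marrow, all 6 were grown under the same conditions to passage 2, and the RNA of each was hybridised to 1 Affymetrix RAE230A array, on which a gene is read by 1 or more sets of short probes. The rats of both groups carry the transgene. The sources used here do not give its promoter, the rats' strain, age and sex, or the number of cells that founded a culture. Cells were selected by adherence to plastic, and the labels describe no sorting by surface antigen. All probe sets whose platform annotation names 1 of the 8 genes alone were taken, 17 of the 15923 on the array. Eng, Nt5e, Anpep and Vcam1 have 1 probe set each, Thy1, Cd44 and Cd200 have 2 each, and Lepr has 7. Each value below is a signal on the log2 scale or, where so named, a difference of such signals, blood minus marrow in the same rat.

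Eng encodes endoglin or CD105, a co-receptor that binds TGF-beta and BMP ligands together with the signalling receptors. Nt5e encodes CD73, the ectoenzyme that turns extracellular AMP into adenosine, and Thy1 encodes CD90, a small glycoprotein held in the membrane by a GPI anchor. Cultured human stromal cells are by convention expected to carry these 3 proteins and to lack CD45 (Ptprc) and other blood cell antigens, while rodent cultures are often described by CD90, CD44 and CD13 as well. CD44 is the main receptor for hyaluronan, CD13 (Anpep) is a membrane aminopeptidase, VCAM-1 is an adhesion molecule that binds integrins of blood cells, CD200 is a ligand that restrains myeloid cells, and the leptin receptor Lepr marks stromal cells around marrow sinusoids in the mouse. The arrays measured RNA, so no statement on protein at the surface is made. In such bulk samples, fewer cells of a type and less RNA per cell cannot be told apart.

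The regions around the transcription starts are shown for 4 genes: Eng and Anpep, the only members whose difference passed the test, and Vcam1 and Cd200, whose signals were high on the same blood arrays. They run from 250 bases before to 50 bases after the start in RefSeq (build GRCr8), at chr3:36332029-36332328 on the plus strand for Eng, chr1:143195052-143195351 on the minus strand for Anpep, chr2:206742734-206743033 on the minus strand for Vcam1 and chr11:68916065-68916364 on the plus strand for Cd200. Of the 8 genes, 7 had an entry and Thy1 had none. Capitals mark the letters GGGNNTNCC, found in many NF-kappaB sites and searched on both strands; they were chosen after the Vcam1 sequence was seen.
Eng: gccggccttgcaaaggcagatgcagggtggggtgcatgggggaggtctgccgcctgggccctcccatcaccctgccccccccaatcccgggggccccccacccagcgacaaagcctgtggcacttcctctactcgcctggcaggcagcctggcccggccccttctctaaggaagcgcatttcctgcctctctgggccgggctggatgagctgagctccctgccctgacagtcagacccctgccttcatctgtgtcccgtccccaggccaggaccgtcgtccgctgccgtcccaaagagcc
Anpep: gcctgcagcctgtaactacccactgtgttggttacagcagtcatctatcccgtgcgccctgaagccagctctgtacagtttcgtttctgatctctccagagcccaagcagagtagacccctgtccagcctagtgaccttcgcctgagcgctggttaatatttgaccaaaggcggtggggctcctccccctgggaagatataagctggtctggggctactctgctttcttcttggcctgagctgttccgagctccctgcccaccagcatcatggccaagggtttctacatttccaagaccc
Vcam1: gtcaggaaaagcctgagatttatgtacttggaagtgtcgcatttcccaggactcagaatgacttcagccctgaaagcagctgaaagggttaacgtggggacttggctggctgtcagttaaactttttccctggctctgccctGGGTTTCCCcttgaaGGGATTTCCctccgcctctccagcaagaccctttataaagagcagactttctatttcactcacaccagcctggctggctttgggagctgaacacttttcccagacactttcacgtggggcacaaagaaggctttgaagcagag
Cd200: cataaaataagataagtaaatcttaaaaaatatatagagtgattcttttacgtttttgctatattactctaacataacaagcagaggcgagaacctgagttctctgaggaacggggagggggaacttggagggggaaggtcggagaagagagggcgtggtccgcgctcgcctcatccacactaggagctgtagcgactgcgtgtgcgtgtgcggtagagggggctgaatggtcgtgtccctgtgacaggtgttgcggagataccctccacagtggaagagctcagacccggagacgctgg
Vcam1 held the letters at bases 143 to 151 and 158 to 166, and the other 3 sequences did not hold them. Among 33469 rat promoters of the same length, 15.7% held them at least once and 3.07% at least 2 times. Vcam1 also held TATAAA, which 14.2% of these promoters held; its match on the minus strand overlaps that on the plus strand. These are matches of letters and say nothing of a factor's binding.

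The 8 genes split into 3 patterns. Eng, Nt5e, Cd44, Anpep, Vcam1 and Cd200 had a signal above the median of all values in the table, 8.18, on all 6 arrays, Thy1 was above it on 3 arrays and below it on 3, and Lepr was above it on 2 arrays with 1 of its 7 probe sets. Counted by array, 6, 7 and 6 of the 8 genes were above it in the blood cultures of rats S4, S5 and S6, against 8, 7 and 7 in their marrow cultures. Thy1 was below it in the blood cultures of S4 and S6 and in the marrow culture of S5, and Lepr was above it only in the marrow cultures of S4 and S5. The median is only a mark of brightness, since no background level is known for these arrays.

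**Figure D1:**
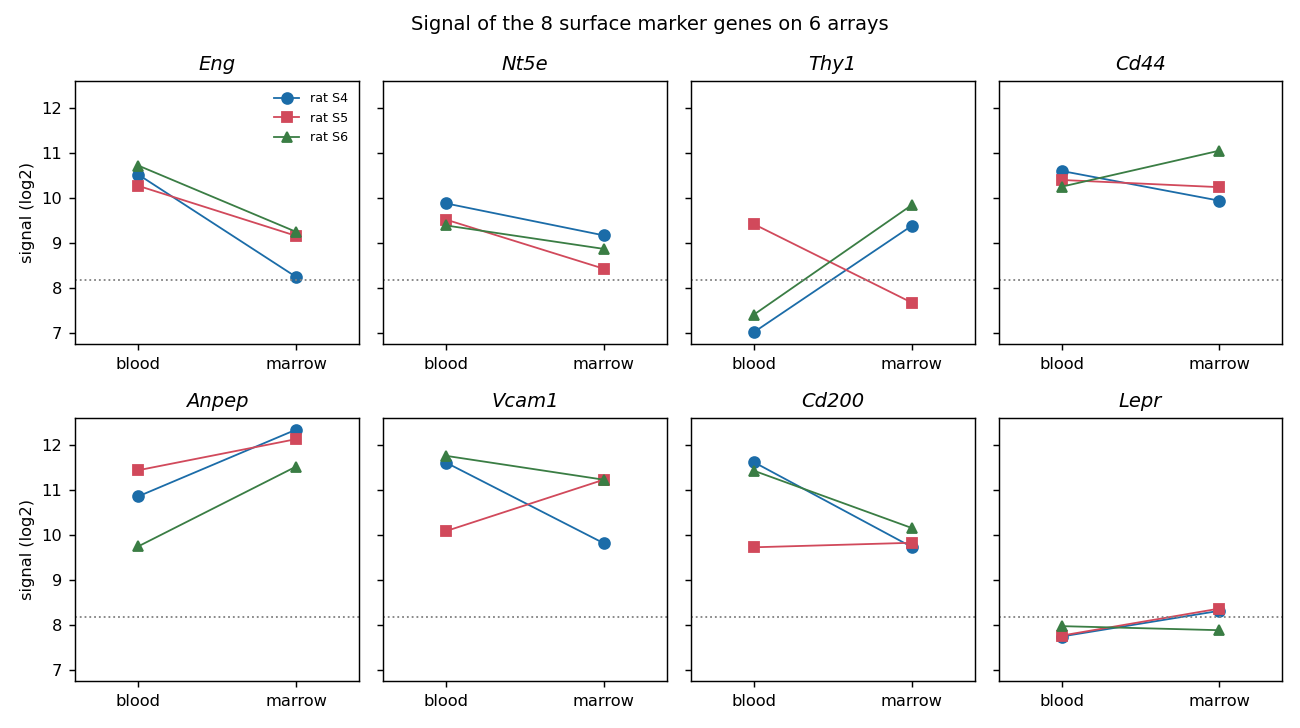
Log2 signal of the 8 genes, each by its brightest probe set, in blood (left) and marrow (right) cultures, with a line joining the 2 arrays of a rat and a dotted line at the table's median of 8.18. Eng and Nt5e lie higher and Anpep lower in blood cultures of all 3 rats, and the lines of Thy1 cross.

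Probe sets were tested where all 3 arrays of a group lay above that median, which left 7625 of the array's probe sets and 7 of the members' 17, standing for 6 genes. These 7 were above it on all 6 arrays, so none entered through 1 group alone. In limma with the rat as a term and Benjamini-Hochberg adjustment, 1 of the 7 was higher and 1 lower in blood cultures at an adjusted p under 0.05, namely Eng and Anpep. Of all probe sets tested, 1.39% were called higher and 1.74% lower, 3.13% in all. The groups did not overlap for 3 of the 7, with Eng and Nt5e higher and Anpep lower in blood cultures, against 19.6% of all probe sets tested (7.56% higher and 12.1% lower), and the same 3 had 1 sign in all 3 rats, against 35.4%. With 1 probe set standing for each gene, 2 of the 6 member genes were called, against 3.02% of all genes tested. With no filter on signal 0 of the 17 probe sets were called, against 0.517% of all, and with any 3 arrays above the median 1 was called, against 2.15%. The median difference was 0.58 over the 6 genes and -0.01 over all 5753 genes tested.

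Eng rose about 3-fold in blood cultures. Its signal was 10.52, 10.27 and 10.72 in the blood cultures of rats S4, S5 and S6, against 8.25, 9.16 and 9.25 in their marrow cultures. The blood arrays lay close together and all above the marrow arrays, of which that of rat S4 was the lowest. The means were 10.50 ± 0.23 in blood and 8.89 ± 0.55 in marrow cultures (SD, n = 3 each), a difference of 1.62 ± 0.23 (SE) or 3.07-fold (adjusted p = 0.0235, limma). Within rats the differences were 2.27, 1.11 and 1.47. The call was lost without rat S4 (1.29, adjusted p = 0.25), without rat S6 (1.69, adjusted p = 0.14) and with no filter on signal (adjusted p = 0.116).

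Eng is also made by endothelial cells and by activated macrophages, so lists of their markers were read on the same arrays. Of 14 endothelial genes 11 were on the array, 2 were tested and neither was called in limma, and their summed linear signal was 1770 to 1950 in blood and 1700 to 1930 in marrow cultures. Pecam1, the endothelial adhesion protein CD31, stood at 5.32, 3.78 and 3.93 in blood, against 4.57, 4.59 and 3.14 in marrow cultures; Cdh5 is named by no probe set used here. Of 16 macrophage and monocyte genes 12 were on the array, 8 were tested and none was called in limma, with a median difference of 0.27. Their summed signal was 10700 to 15100 in blood and 7530 to 16000 in marrow cultures, and the lowest sum was that of the marrow culture of rat S4, the array with the lowest Eng. Cd68, a macrophage lysosomal protein, was at 11.00, 10.94 and 11.00 in blood, against 9.64, 10.78 and 11.11 in marrow cultures, and Tyrobp, a myeloid adaptor, at 10.76, 10.42 and 10.74 in blood, against 9.79, 10.28 and 10.64 in marrow cultures. No gene of either list was at 0 on any array. The part of these cells in the Eng difference was not tested.

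The list of receptors, ligands and targets around endoglin had 31 genes, with 26 on the array. Of these, 20 were tested, each by its brightest tested probe set, and none was called in limma. Of the 20, 9 lay above 0 and the median difference was -0.07. Those with the smallest unadjusted p were Smad3, a transducer of TGF-beta receptors, at -0.58 ± 0.16, Tgfb2, a TGF-beta ligand, at 0.81 ± 0.23, and Mmp14, a membrane protease, at -0.38 ± 0.12 (SE, adjusted p = 0.15, 0.171 and 0.2). Smad7 was at 0.02 by its brightest probe set, but a dimmer one, also tested, was called higher at 0.99 ± 0.14 (adjusted p = 0.0221). The dimmer one was not called with no filter on signal (adjusted p = 0.111). Acvrl1 or ALK1, the receptor that endoglin serves in endothelial cells, did not meet the filter on signal. It stood at 7.17, 8.35 and 6.76 in blood, against 8.54, 7.81 and 8.56 in marrow cultures. Its difference was negative in rats S4 and S6 and positive in rat S5, unlike that of Eng.

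Nt5e stood higher in blood cultures of every rat but did not pass the threshold. Its signal was 9.88, 9.52 and 9.39 in the blood and 9.17, 8.43 and 8.87 in the marrow cultures of rats S4, S5 and S6. Every blood array lay above every marrow array. The means were 9.60 ± 0.25 and 8.82 ± 0.37 (SD, n = 3 each), and the difference of 0.77 ± 0.15 (SE) had a 95% interval of 0.41 to 1.14 and an adjusted p of 0.0607 in limma. Around it, 11 of 22 listed genes of extracellular ATP and adenosine were tested, none was called and 5 lay above 0. P2ry2, a receptor for extracellular nucleotides, was at 1.07 ± 0.23, Enpp1, which splits extracellular ATP, at 1.30 ± 0.29, and Slc29a1, a nucleoside transporter, at -1.38 ± 0.45 (adjusted p = 0.0805, 0.0909 and 0.213).

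By the brightest probe set of each gene, Thy1 had the widest spread within a group among the 8 genes (SD 1.29 in blood and 1.14 in marrow cultures), and its direction differed between rats. Its brighter probe set read 7.02, 9.42 and 7.41 in the blood cultures of rats S4, S5 and S6, against 9.38, 7.68 and 9.84 in their marrow cultures. Blood was thus lower than marrow in rats S4 and S6 and higher in rat S5, and the S5 blood culture lay between the marrow cultures of the other rats. Differences were -2.36, 1.74 and -2.43. The second probe set read 6.36, 9.80 and 6.97 in blood, against 9.66, 7.39 and 10.21 in marrow cultures, with differences of -3.30, 2.41 and -3.24, and followed the first over the 6 arrays at a Pearson r of 0.999. Because neither group was above the median on all 3 arrays, Thy1 was not tested; with no filter on signal its mean difference of -1.02 had a 95% interval of -3.32 to 1.29 and an adjusted p of 0.8 in limma. The mean difference was -0.345 without rat S4, -2.40 without rat S5 and -0.31 without rat S6.

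Rat S5 also had the sign opposite to rats S4 and S6 for Vcam1 (-1.14 in S5) and for the brighter probe set of Cd200 (-0.10), there with blood below marrow, while Eng and Nt5e were higher and Anpep lower in blood than in marrow in all 3 rats. Of 8113 probe sets with a value on all 6 arrays and above the median on any 3, 9 had a difference of at least 1 in every rat with the sign of S5 opposite to the other two, 2 had it with S6 opposite and 0 with S4 opposite, while 133 had 1 sign throughout. With a difference of at least 0.5 in every rat, 40 probe sets had S5 opposite, among them those of Vcam1 and Acvrl1, 12 had S6 opposite and 6 had S4 opposite. The 9 included both Thy1 probe sets and those of Ankrd1, Car3, Lama5, Prdm1 and Wfdc18. Over all probe sets, the S5 blood array followed the blood arrays of S4 and S6 at a Pearson r of 0.953 and 0.951. With the marrow arrays of S4, S5 and S6 it had r = 0.954, 0.951 and 0.944. The blood arrays of S4 and S6 followed each other at 0.977. The sample names stored with each scan gave the same rat and source as the labels for all 6 arrays.

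**Figure D2:**
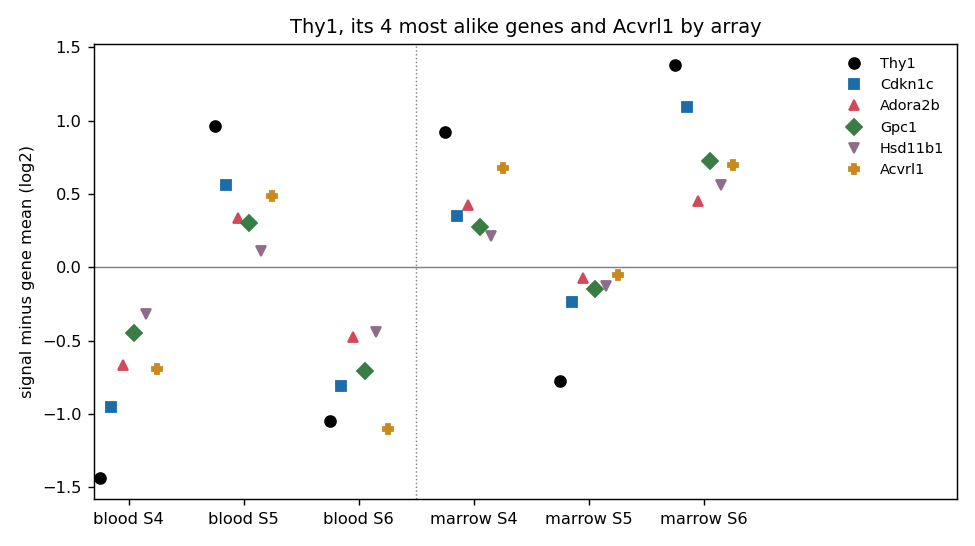
Log2 signal minus the gene's mean over the 6 arrays for Thy1 (brighter probe set), the 4 genes most like it and Acvrl1, by array, with blood arrays left of the dotted line. Thy1 was above its mean in the blood culture of rat S5 and the marrow cultures of S4 and S6, and the other 5 genes had the same signs with smaller spread.

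The genes most like Thy1 over the 6 arrays, picked after its values were seen, were Cdkn1c, a cell cycle inhibitor, at r = 0.97, Adora2b, an adenosine receptor, at 0.965, Gpc1, a GPI-anchored proteoglycan, at 0.938, and Hsd11b1, which activates glucocorticoids, at 0.929. Adora2b, for example, read 9.28, 10.28 and 9.47 in blood, against 10.37, 9.87 and 10.40 in marrow cultures. They are the highest of 991 probe sets compared over 6 arrays and are descriptions only. Among 19 listed integrins, kinases and membrane proteins around Thy1, 8 were tested and 1 was called, Cav1, the caveolar coat protein caveolin-1, which rose in blood cultures by 1.03 ± 0.16 (SE, adjusted p = 0.0325 in limma). It read 12.04, 10.64 and 11.91 in blood, against 10.61, 9.78 and 11.10 in marrow cultures, so the groups overlapped while every rat showed the difference. Of all genes tested, 1.3% were called higher. The Cav1 call held in 7 of 11 alternative settings and was lost with no filter on signal (adjusted p = 0.133) and without rat S4 (0.267) or rat S6 (0.143). A dimmer probe set of Cav1, which entered the test through the blood group alone, differed by 1.33 ± 0.28 (adjusted p = 0.079). The next by p were Cd55, a GPI-anchored complement regulator, at -1.22 ± 0.31, and Sdc4, a syndecan, at -0.33 ± 0.15 (adjusted p = 0.122 and 0.373). Cd55 entered the test through the marrow group alone, its S6 blood array being at 7.61, so nothing is read from its difference or p.

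The group means of Cd44 were nearly equal. Its brighter probe set read 10.60, 10.40 and 10.25 in blood, against 9.94, 10.24 and 11.05 in marrow cultures, where both the highest and the lowest arrays were marrow. The means were 10.42 ± 0.18 and 10.41 ± 0.57 (SD, n = 3 each), and the difference of 0.01 had a 95% interval of -0.66 to 0.67. The second probe set, at 10.28, 9.99 and 9.92 in blood, against 9.53, 9.90 and 10.60 in marrow cultures, gave 0.05 with an interval of -0.59 to 0.70. Of 24 listed genes of hyaluronan synthesis and breakdown and of partners of CD44, 10 were tested and none was called. Vcan, the hyaluronan-binding proteoglycan versican, was at -0.97 ± 0.20, Hyal3, a hyaluronidase, at -0.50 ± 0.15, and Ezr, which ties CD44 to actin, at 1.32 ± 0.42 (adjusted p = 0.0785, 0.174 and 0.21).

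Anpep fell in blood cultures. It read 10.85, 11.43 and 9.74 in the blood cultures of rats S4, S5 and S6, against 12.33, 12.12 and 11.51 in their marrow cultures. All blood arrays lay below all marrow arrays, the blood array of S5 being only just below the marrow array of S6. The means were 10.67 ± 0.86 and 11.99 ± 0.43 (SD, n = 3 each), a difference of -1.31 ± 0.22 (SE), or 2.49-fold (adjusted p = 0.0368, limma), made of -1.48, -0.69 and -1.77 within rats. The call held in 5 of 12 alternative settings. Among those in which it was lost were the fit without the rat as a term (adjusted p = 0.225), arrays scaled to a common mean (0.0892), the fit with any 3 arrays above the median (0.0574), and the fits without rat S4 (0.464) and without rat S6 (0.216).

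Of other peptidases, Mme, Enpep and Fap fell in blood cultures, 3 of 12 tested from a list of 18 peptidases, most of them of the cell surface, while none rose and 9 did not pass. Of all genes tested, 1.72% were called lower, and the median difference of the 12 was -0.28, against -0.01 over all genes tested. Fap and Enpep were above the table's median on all 3 marrow arrays but not on all blood arrays, so they entered the test through the group in which they were high, and nothing is read from the count or the median. With no filter on signal, Enpep was called (adjusted p = 0.023, limma) and Mme and Fap were not (0.0691 and 0.116). Mme, the neutral endopeptidase neprilysin or CD10, read 8.29, 9.24 and 8.23 in blood, against 11.98, 11.23 and 11.89 in marrow cultures, which gave a difference of -3.11 ± 0.34 (SE, adjusted p = 0.00967). Fap, the fibroblast activation protein, read 6.23, 8.49 and 6.50 in blood, against 10.45, 10.22 and 10.01 in marrow cultures, which gave a difference of -3.15 ± 0.44 (adjusted p = 0.0232). Its S4 and S6 blood arrays lay well below the table's median, so the fold is approximate.

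Enpep, the glutamyl aminopeptidase that cleaves angiotensin, read 8.17, 8.67 and 8.08 in blood, against 10.38, 10.95 and 10.04 in marrow cultures, which gave a difference of -2.15 ± 0.13 (adjusted p = 0.00149). However, its dimmer probe set, also tested, read 8.80, 8.04 and 8.72 in blood, against 8.70, 8.57 and 8.47 in marrow cultures and differed by only -0.06 ± 0.18 (adjusted p = 0.936). The count of 3 was 0 without rat S4, 1 without rat S6 and 3 without rat S5. Rat S5 had the smallest difference of the 3 rats for Anpep, Mme and Fap, and the largest for Enpep.

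**Figure D3:**
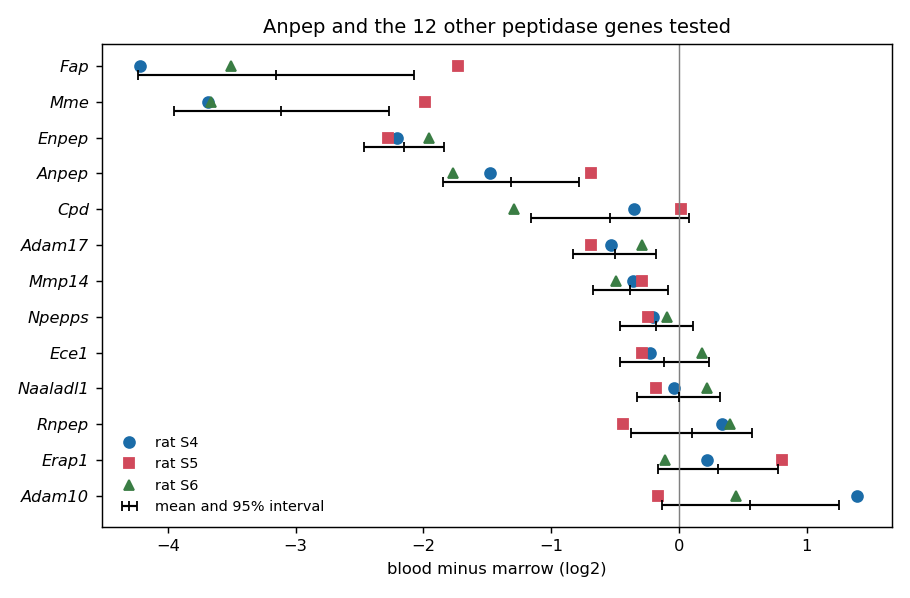
Blood minus marrow difference in log2 signal for Anpep and the 12 other peptidase genes tested, with a marker for each rat and a bar for the mean and its 95% interval from limma. Fap, Mme, Enpep and Anpep lie at -3.15, -3.11, -2.15 and -1.31, and the other genes lie between -0.54 and 0.56.

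Vcam1 was high on most arrays and differed in direction between rats. It read 11.60, 10.08 and 11.75 in blood, against 9.81, 11.22 and 11.22 in marrow cultures, so that the blood culture of S5 and the marrow culture of S4 were the low arrays. Differences were 1.79, -1.14 and 0.53, and the mean of 0.39 ± 0.50 (SE) had a 95% interval of -0.84 to 1.62 (adjusted p = 0.822). It was -0.305 without rat S4 and 1.16 without rat S5. Its listed counter-receptors, relatives and NF-kappaB genes, 11 tested of 17, gave no call, with 6 above 0. Adam17, the sheddase that can release VCAM-1 from cells, was at -0.50 ± 0.13, Ezr, named above, at 1.32 ± 0.42, and Cxcl12, the chemokine that holds blood stem cells in marrow, at -0.42 ± 0.17 (adjusted p = 0.136, 0.21 and 0.313).

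Cd200 was high in blood cultures of 2 of the 3 rats. It read 11.61, 9.72 and 11.42 in blood, against 9.73, 9.82 and 10.15 in marrow cultures, so the S5 blood culture lay with the marrow cultures and the other 2 blood cultures above them. Differences were 1.88, -0.10 and 1.27, and the mean of 1.02 ± 0.36 (SE) had an adjusted p of 0.25 in limma. Without rat S5 it was 1.58 ± 0.21 with an adjusted p of 0.00513, from 2 rats and 1 residual degree of freedom, and it was 0.585 without rat S4 and 0.89 without rat S6 (adjusted p = 0.616 and 0.71). A dimmer probe set, below the median on all arrays, read 6.35, 4.34 and 4.97 in blood, against 3.89, 4.12 and 4.58 in marrow cultures. Vcam1 and Cd200 followed each other over the 6 arrays at a Pearson r of 0.775, and both ran against Thy1, at -0.709 and -0.745. These are values over 6 arrays that share rats and sources.

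The receptor gene Cd200r1 was at 0.76 ± 0.28 (adjusted p = 0.275), and 7 of 16 listed checkpoint and immune-restraining genes were tested, with no call in limma and 2 above 0. Vsir, the checkpoint ligand VISTA, was at -1.40 ± 0.26 and Sirpa, the myeloid receptor for CD47, at -0.94 ± 0.20, with adjusted p of 0.0519 and 0.0799. For both of these genes the blood arrays lay below the marrow arrays without overlap, as for 12.1% of all probe sets tested. Vsir entered the test through the marrow group alone, its S6 blood array being at 7.54. The 2 genes above 0, Cd200r1 and the TGF-beta ligand gene Tgfb1, entered through the blood group alone. Nothing is read from the overlap or p of Vsir, Cd200r1 and Tgfb1, or from the count above 0.

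Lepr was dim on every probe set. The brightest read 7.74, 7.76 and 7.97 in blood, against 8.31, 8.36 and 7.88 in marrow cultures, above the median only in the marrow cultures of S4 and S5. The other 6 ranged from 1.52 to 7.85 and none was above it on any array. The 7 probe sets did not follow each other: of their 21 pairs, 12 had a positive Pearson r over the 6 arrays, and the 2 brightest had r = -0.637. None of the 7 was tested, and with no filter on signal the brightest differed by -0.36 ± 0.19 (SE, adjusted p = 0.594). Of 17 leptin receptor signalling genes, 12 were tested and none was called. Ptpn1, a phosphatase that limits leptin signalling, was at -0.51 ± 0.16, Stat3, its transcription factor, at -0.36 ± 0.12, and Socs3, its feedback inhibitor, at -1.20 ± 0.47 (adjusted p = 0.2, 0.21 and 0.306). Ptpn1 and Socs3 entered the test through the marrow group alone, in which they were high, so nothing is read from their differences or p.

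**Figure D4:**
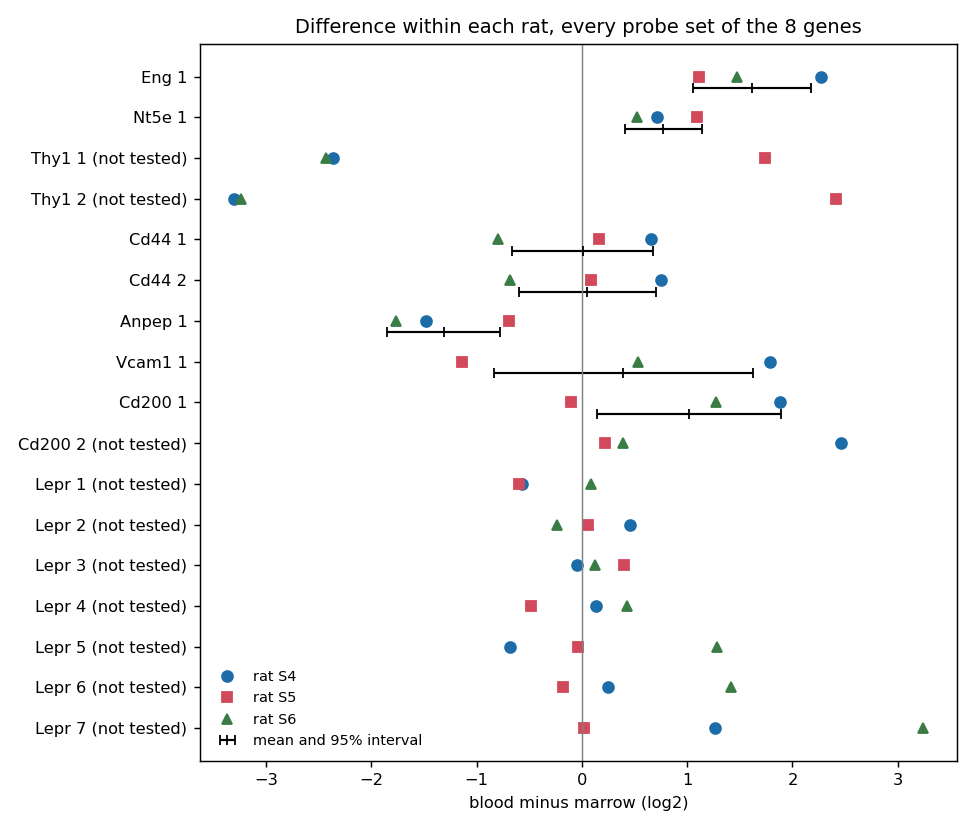
Blood minus marrow difference in log2 signal within each rat for all 17 probe sets, numbered within a gene by falling mean signal, with a bar for the mean and its 95% interval from limma where tested. Rat S5 lies on the other side of 0 from rats S4 and S6 for both Thy1 probe sets, Vcam1 and the brighter probe set of Cd200. The same holds for some dim Lepr probe sets. The intervals of Eng, Nt5e, Anpep and Cd200 exclude 0 before adjustment.

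Beyond the 8 genes, 17 of 27 other stromal surface markers and niche genes were tested, and 2 fell, Fap, given above, and Pdgfra, the PDGF receptor alpha, while 15 did not pass and the median difference was -0.07. Of all genes tested, 1.72% were called lower. Fap entered the test through the marrow group alone, so nothing is read from the count. Pdgfra read 8.91, 10.84 and 9.65 in blood, against 11.90, 11.94 and 11.35 in marrow cultures, which gave a difference of -1.93 ± 0.34 (SE, adjusted p = 0.0444 in limma). That call held in 4 of 11 alternative settings. Ncam1, a neural cell adhesion molecule, was at 1.34 ± 0.37 (adjusted p = 0.152).

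On the negative side, 5 of the 19 listed haematopoietic markers met the filter and none was called in limma. Their differences were 0.10 to 0.67, all above 0. Of the 5, RT1-Ba, at 0.10, entered the test through the blood group alone. Markers that missed the filter lay on both sides of 0, for example Cd79b at -0.34 and Itgam at 0.29. Cd14 was above the median on every array, at 10.04, 9.49 and 9.98 in blood, against 9.61, 9.49 and 10.05 in marrow cultures. Ptprc, the pan-leukocyte antigen CD45, was below the median on every array, at 7.77, 7.15 and 7.73 in blood, against 6.77, 7.15 and 7.90 in marrow cultures. Laptm5, a lysosomal protein of blood cells, read 9.87, 9.45 and 9.58 in blood, against 8.49, 8.88 and 9.52 in marrow cultures. Cd53, a leukocyte tetraspanin, read 10.25, 9.99 and 10.02 in blood, against 8.78, 9.90 and 9.88 in marrow cultures. The summed linear signal of the 15 markers on the array was 5000 to 6100 in blood and 4030 to 5250 in marrow cultures. The remaining lists, of lymphocyte, pericyte and smooth muscle, and erythroid and platelet genes, had 2, 5 and 3 genes tested. By the brightest tested probe set none of these was called. A dimmer probe set of Abcc9, a pericyte gene, was called lower in blood cultures at -3.47 ± 0.49 (SE, adjusted p = 0.0232 in limma). It read 5.51, 6.00 and 6.46 in blood, against 10.19, 9.82 and 8.36 in marrow cultures, and the brightest differed by -0.07. The dimmer one entered the test through the marrow group alone and was not called with no filter (adjusted p = 0.116). Of mesothelial and epithelial genes 1 was higher and 1 lower in blood cultures, against 1.3% and 1.72% of all genes tested. Msln, a mesothelial surface protein, was at -1.24 ± 0.12 (adjusted p = 0.0055 in limma). Wt1, a transcription factor, read 9.38, 9.06 and 8.72 in blood, against 5.23, 5.07 and 5.37 in marrow cultures (adjusted p = 0.0011). Its marrow arrays lay far below the table's median, with no known background, and it entered the test through the blood group alone, so its difference of 3.83 is approximate. A second probe set of Wt1, not tested, read 7.42, 7.45 and 7.26 in blood, against 6.82, 7.02 and 6.93 in marrow cultures. With no filter on signal that one differed by only 0.45 (adjusted p = 0.318 in limma). The summed signals in blood and marrow cultures were 1230 to 1430 and 1260 to 1520 for lymphocyte, 6100 to 8370 and 5940 to 6590 for pericyte and smooth muscle, 4440 to 5300 and 3110 to 4860 for erythroid and platelet, and 1010 to 1140 and 1300 to 1800 for mesothelial and epithelial genes. All summed signals take each gene by its brightest probe set, tested or not. Wt1 thus entered its sum by the untested probe set, and the called one is not in that sum.

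Genes most like each tested member over the 6 arrays were named by Pearson r, as a description. A gene picked for its likeness to Eng or Anpep tends to share that member's difference, so its own difference and p are no separate result. Akr1b8, an aldo-keto reductase, had r = 0.993 with Eng and was itself higher by 1.51 ± 0.19 (adjusted p = 0.0165 in limma), reading 10.58, 10.33 and 10.56 in blood, against 8.54, 9.16 and 9.25 in marrow cultures. Slc7a7, an amino acid transporter subunit, Ifi27l2b and Trib3, a stress-induced pseudokinase, followed Eng at 0.989, 0.979 and 0.979. Dab2, an endocytic adaptor, followed Anpep at 0.991 and fell in blood cultures, with a difference of -0.94 ± 0.16 (adjusted p = 0.0428). That call held in 4 of 11 alternative settings and was lost, for example, with no filter on signal (adjusted p = 0.159) and with any 3 arrays above the median (0.0624). Gys1, Ugcg and Spsb1 followed Anpep at 0.985, 0.979 and 0.978. Nt5e was most like Inhbb, Myh10, Ndrg2 and Rassf8 (0.978 to 0.959), Cd44 like Ackr3, Fcgr2b, Sytl2 and Hes6 (0.97 to 0.881), Vcam1 like Msi2, Id2, Ankrd13c and Ifitm1 (0.969 to 0.934), and Cd200 like Celf2, Arhgap21, Acsl5 and Ssh2 (0.994 to 0.987).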

How the data were processed

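RNA of 6 passage 2 cultures was measured, 3 from blood and 3 from marrow of the same 3 rats. The deposited table holds 1 signal per probe set and array, taken to be log2 because values run from 0 to 13.31; the base is not stated, and folds depend on it. The submitters' processing notes name GCOS, Affymetrix software; summary method, background correction and normalization are unstated. Instrument settings deposited with each scan, in other units, put all arrays on 1 day, rats S4 and S5 on fluidics station 1 and rat S6 on station 2. In each rat the blood array was scanned just before the marrow array, so scan position within a pair and source cannot be told apart. Array medians were 8.12 to 8.22. Empty cells (86 of 95538) were left empty, and 57 control probe sets were left out.

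Values were used as deposited with limma 3.58.1 in R 4.3.3 (lmFit, eBayes, two-sided, rat as a fixed term since the series' design text pairs cultures by animal). The 2 arrays of a rat, each taken as deviation from its group's mean, had r = -0.253 (S4), 0.312 (S5) and 0.309 (S6); arrays of different rats had -0.456 to 0.392. The filter uses the groups and gave 239 calls. The brightest tested probe set stood for a gene. An exact sign-flip test of 3 pairs cannot go below 0.25, so none was run. Separate cultures of 3 animals are the replicates, and their number limits the precision. The 8 genes have their symbol and identifier in the RefSeq gene table. Members and lists were chosen with earlier results of these data known. The fit was tested on simulated data. Besides the members, the genes named were up to 3 per pathway list by smallest p, every called gene of a list, fixed cell type markers and 4 genes per member by correlation. Figures were drawn with matplotlib 3.10.9 and tables with pandas 2.3.3 in Python 3.11.15.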

Additional observations from a re-analysis of the deposited data

How the results depend on the processing

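Among the 17 probe sets of the 8 genes, the 2 calls (1 higher, 1 lower) became 1 without the replicate block, that is without the rat as a term, 1 after scaling to a common trimmed mean, 1 after quantile normalization, 1 with any 3 arrays above the median (added after seeing the data) and 0 with no filter on signal, where 82 of all 15866 probe sets were called and 1780 had an unadjusted p under 0.05 in limma. Leaving out 1 rat at a time gave 0 to 3, with Cd200 joining Eng and Anpep without rat S5. The calls among all probe sets were 239, and 144 without the replicate block, 142 after scaling, 135 after quantile normalization and 82 with no filter. They were 0 without rat S4 (774 at an unadjusted p under 0.05 in limma), 422 without rat S5 and 73 with rat S6 left out. The count of 3 called among the other peptidase genes was 1 with no filter and 0 to 3 when a rat was left out. Fits on 2 rats had 1 residual degree of freedom.

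Eng kept its call in 9 of 12 alternatives and Anpep in 5 of 12, both with the same sign in all 12. Nt5e passed in 1 of 12, with the mean of all probe sets standing for each gene (adjusted p = 0.0446). Signs turned only for differences that had not passed. With 1 rat left out at a time, Cd44 ranged from -0.32 (without S4; -0.07 without S5) to 0.41 and Vcam1 from -0.305 (without S4) to 1.16. Of the genes named for likeness, turning without S4, Ackr3 ranged from -0.355 to 0.565 (-0.04 without S5), Ankrd13c from -0.025 to 0.715, Fcgr2b from -0.14 to 1.12, Id2 from -0.04 to 0.50 and Msi2 from -0.015 to 0.68. The Id2 range is that of its brighter probe set, not of the dimmer one named for likeness to Vcam1. Turning without S6, Hes6 ranged from -0.32 to 0.18 and Sytl2 from -0.38 to 0.275. Lepr moved to 0.30 when its 7 probe sets were averaged. No scaling moved the median of all differences by more than 0.1. Signals below the table's median have no known background, which limits Thy1, Lepr and the low arrays of genes such as Fap, Enpep, Abcc9, Vsir and Wt1.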
